A study of Mus musculus with 5 samples.

Results

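RNA-seq of cultured mouse ventral midbrain (VM) astrocytes was compared between the library titled NF, which by its title received Nurr1 (N) and Foxa2 (F), and the library of untransduced VM astrocytes. These are 2 of the 5 libraries of the series, with 1 library on each side and no replicate, so no test of the conditions was possible. A gene was taken as measured if either library gave it an FPKM above 1 (reads normalized to transcript length and to library total), which held for 12428 of the 20178 listed transcripts. Of these, 123 genes differed by 2-fold or more, which is 0.990% of the genes tested. The library titled NF was higher in 40 of them (0.322%) and lower in 83 (0.668%).

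All 3 VM cultures came from ICR mice at postnatal day 5 and were at 2 passages. The untransduced culture received no virus. The other 2 are titled NF and C, but their treatment entries say the reverse of the titles: the library titled NF is entered as mock virus and the library titled C as Nurr1 and Foxa2. Titles were followed, and reads of the library titled C are given beside the main values for many genes. In the study's methods, lentiviral vectors with the CMV promoter, which is not restricted to a cell type, carried a mouse Nurr1 or a rat Foxa2 cDNA, and the mock virus was the empty backbone. Neither the share of cells transduced nor the number of animals pooled per culture is given in the sources used here. The remaining libraries were cortical (Ctx) astrocytes of postnatal day 5 and cortical neural progenitor cells (NPCs) of embryonic day 12, both at 2 passages and without virus. The counted reads came to 20338910 in the library titled NF and 21301651 in the untransduced library, and lay between 20010818 and 22554835 over the 5 libraries. A gene with 3 reads has a CPM (reads scaled to the library total) of 0.148 and 0.141 in the 2 libraries compared, and nothing below that was read as a level. The library labelled Ctx NPCs held 75411 reads of the myelin gene Mbp and 122531 of the astrocyte gene Gfap, more than any VM library, and is used here for levels only.

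Nurr1, encoded by Nr4a2, is an orphan nuclear receptor that binds DNA as a monomer, and Foxa2 is a forkhead factor that can bind its sites in closed chromatin. Both are needed for the formation and upkeep of midbrain dopamine neurons. In glia, Nurr1 is known to hold down inflammatory genes that NFκB drives.

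Both transduced genes were higher in the library titled NF than in any other library. Foxa2 (NM_010446, chr2:148042877-148046969 of GRCm38) had 216 reads in the library titled NF, 68 in the untransduced library, 15 in the library titled C, 1 in Ctx astrocytes and 0 in Ctx NPCs. Its log2 ratio over the untransduced library was 1.73, a 3.31-fold higher value, with a 95% interval from 1.33 to 2.15. Nr4a2 (NM_013613, chr2:57106830-57124003) had 183, 81, 53, 106 and 93 reads in the same order. Its log2 ratio was 1.24 (interval 0.86 to 1.64), 2.36-fold higher. All intervals given here are exact (Clopper-Pearson). They hold the error of counting and nothing else, because PCR copies of a molecule are counted as separate reads and no further culture measures the spread between cultures. In CPM, Foxa2 went from 3.19 to 10.6 and Nr4a2 from 3.8 to 9.0, so both stayed at low levels in the library titled NF. The library titled C held less of both than the untransduced library did. Reads from the vectors and from the cells' own genes were not separated, and how well rat Foxa2 reads map to the mouse sequence was not tested.

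**Figure D1:**
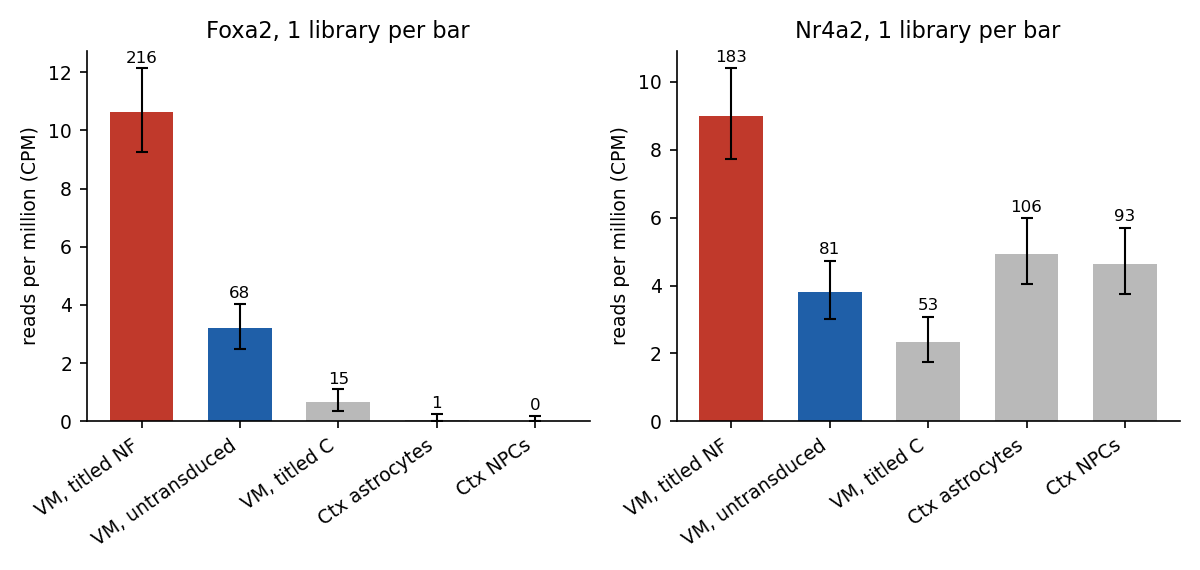
CPM of Foxa2 and Nr4a2 in each of the 5 libraries. Each bar is 1 library, the line is its exact 95% counting interval and the number above it is the read count. The library titled NF is the highest for both genes, at 10.6 CPM for Foxa2 and 9.0 CPM for Nr4a2.

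The tested related genes and the tested genes of the midbrain dopamine lineage stayed within 2-fold. Of the 6 tested genes of the Nr4a, Foxa and RXR families, Foxa2 and Nr4a2 were the 2 past 2-fold. Foxa1, which shares targets with Foxa2, had 252 reads in the library titled NF and 267 in the untransduced library, and Nr4a1, the relative of Nurr1 known as an immediate early gene, had 757 and 754. Rxra, a partner receptor, had 2019 and 2002. Of 18 dopamine lineage genes 10 were tested, none was past 2-fold, and their log2 ratios ran from -0.31 to 0.33 with a median of -0.00. Among them En1, a midbrain patterning gene, had 270 and 350 reads and Otx2, which marks the midbrain, had 498 and 416. The untested members were below the FPKM limit, among them Th (5 and 3 reads), Ddc (12 and 20), Slc6a3 (10 and 4) and Pitx3 (13 and 6). Of 13 floor plate and Hedgehog genes 10 were tested, with a median log2 ratio of 0.02 and none past 2-fold. Shh, the floor plate morphogen, had 750 and 1003 reads, and its receptor Ptch1 had 1170 and 879. Sgk1, the kinase the study centers on, had 2947 and 3319 reads, a log2 ratio of -0.10 (interval -0.18 to -0.03). Sgk1 had 7977 reads in the library titled C.

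Over all 12428 tested genes the 2 libraries lay close together. The median difference was 1.14-fold in either direction, and 90% of genes lay within 1.41-fold. The median log2 ratio was -0.05, with 57.5% of genes below 0. The library titled C differed far more from the untransduced library, with 2004 of 12703 genes past 2-fold (15.8%). Few of the 123 genes were strongly expressed. The median read count in the higher library was 222.5 for the 40 higher genes and 73 for the 83 lower ones, and 29 genes on each side reached 100 reads there. The whole counting interval lay past 2-fold for 19 higher and 6 lower genes, and it held no difference for Lsm7 and Gng13. FPKM was above 1 in both libraries for 23 of the higher and 39 of the lower genes; the others entered through the library where they are high.

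**Figure D2:**
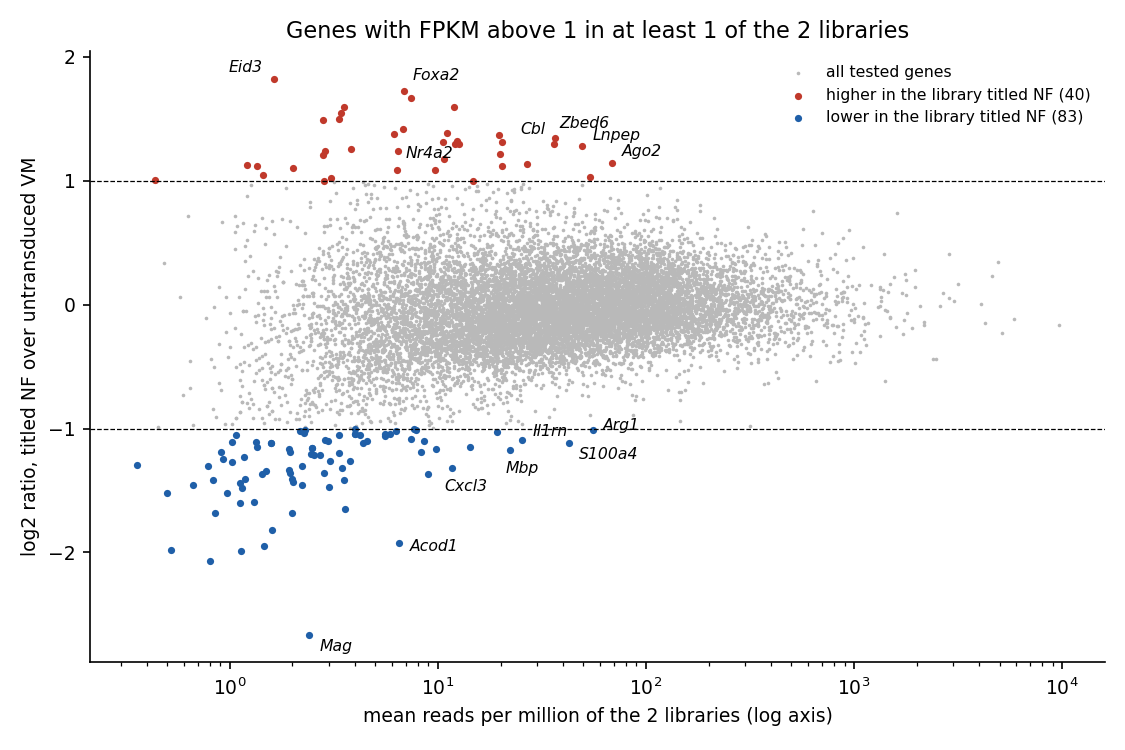
Log2 ratio of the library titled NF over untransduced VM astrocytes against the mean CPM of the 2 libraries on a log axis. Each point is a gene, grey for all 12428 tested, red for the 40 higher and blue for the 83 lower past 2-fold (dashed lines). All colored points lie below 100 CPM, and Mag and Foxa2 lie far out on either side.

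Transcript length moved with the result. The median transcript was 3222.5 bases long for the higher genes, 1355 for the lower genes and 2893 for all tested genes. With the tested genes divided by length into 5 groups of equal size, from the shortest to the longest, the median log2 ratio went from -0.24 through -0.14, -0.06 and 0.03 to 0.19. The lower genes numbered 49, 17, 15, 2 and 0 over these groups, and the higher genes 7, 6, 8, 9 and 10. The library titled C over the untransduced library gave -0.08 in the shortest group and 0.08 in the longest, and titled NF over titled C gave -0.14 and 0.13. Each of these pairs shares a library with the main comparison. When each log2 ratio was set against the median of genes of similar length, a calculation added after the data were seen, 49 genes were higher and 53 lower. Of the 123 genes, 35 higher and 51 lower ones stayed past 2-fold. The 5 higher genes that did not were Ago2, Brwd3, Tmem245, Pappa2 and D830031N03Rik, all with transcripts in the longest group. Among the 32 lower genes were Tnf, Ccl4, Ccl20, Csf2, Arg1, S100a4, Igsf6 and Fcgr4, and each of these lay between -0.75 and -0.98 once set against its length. With edgeR's TMM scaling in place of library totals, 55 genes were higher and 68 lower, so the split between directions depends on the scaling.

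**Figure D3:**
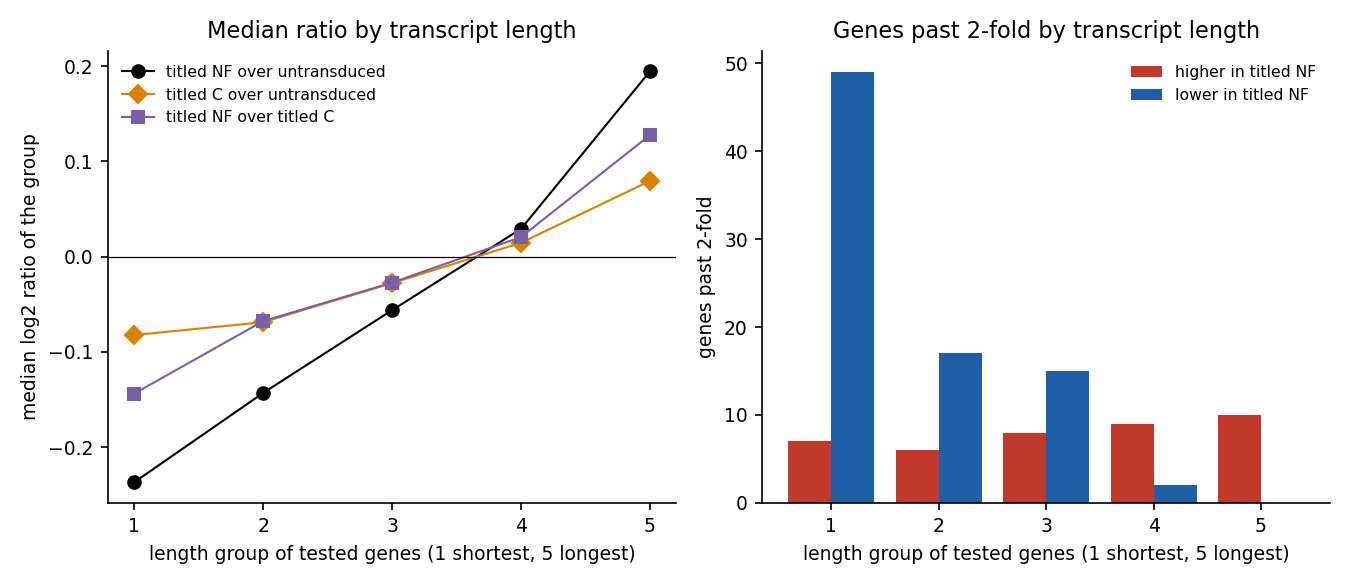
Left, median log2 ratio in 5 equal-sized groups of the tested genes ordered by transcript length, for each pair of VM libraries. Right, number of genes past 2-fold in the same groups for titled NF against untransduced. The median for titled NF over untransduced climbs from -0.24 to 0.19, and 49 of the 83 lower genes lie in the shortest group.

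The 38 genes that were higher beside Foxa2 and Nr4a2 were mostly regulatory proteins. Sorted by known function after their values were seen, 10 were ubiquitin ligases, kinases, phosphatases or proteins of small GTPases, 9 were DNA-binding or chromatin proteins, 5 bind RNA or belong to the RNA polymerase II machinery, 4 were neuronal or transport genes, 2 were proteases, 1 was a sperm gene and 7 had other functions or none that could be given. No share of these functions among all genes was tested.

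Among the DNA-binding proteins, Zbed6, a repressor that derives from a transposon, had the most reads. It had 1069 reads in the library titled NF, 441 in the untransduced library, 926 in the library titled C, 591 in Ctx astrocytes and 635 in Ctx NPCs, a log2 ratio of 1.34 (interval 1.18 to 1.51) for titled NF over untransduced. Zbtb20, a zinc finger repressor of glial and hippocampal development, had 579, 234, 181, 762 and 102 reads and a ratio of 1.37 (interval 1.15 to 1.60). Zfp536, a zinc finger repressor of neuronal differentiation, had 202, 79, 88, 144 and 122 reads and a ratio of 1.42 (interval 1.04 to 1.82). For Zbtb20 and Zfp536 the library titled NF stood above both other VM libraries, whereas for Zbed6 the library titled C lay close to it. Prox1, a homeobox factor, had 351, 149, 127, 350 and 127 reads and a ratio of 1.30 (interval 1.02 to 1.59). Foxn3, a forkhead repressor, had 359, 150, 212, 323 and 330 reads and a ratio of 1.32 (interval 1.05 to 1.61). Foxn3 and Prox1 were again lower in both other VM libraries, and in Ctx astrocytes they were at levels near those of the library titled NF. Eid3, a subunit of a chromosome maintenance complex, had the highest log2 ratio of all tested genes, 1.83 (interval 1.01 to 2.80), from 52 and 15 reads. The remaining members were Klf7, Brwd3 and the imprinted gene Zim1. Klf7 had 177, 87 and 220 reads in the libraries titled NF, untransduced and titled C. Brwd3 had 268, 132 and 258 in the same order, and Zim1 had 84, 31 and 35.

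The RNA group held 2 of the Argonaute proteins, which carry miRNAs to their targets. Ago3 had 365 reads in the library titled NF, 126 in the untransduced library, 283 in the library titled C, 314 in Ctx astrocytes and 274 in Ctx NPCs, a log2 ratio of 1.60 (interval 1.31 to 1.91). Ago2 had 1915, 906, 1556, 1450 and 1194 reads and a ratio of 1.15 (interval 1.03 to 1.26), the most reads of any higher gene. For both Argonautes the untransduced library was the lowest of the 5 in reads. Their transcripts are long, 7654 and 8050 bases, and set against genes of that length Ago2 came to 0.84. Cpeb4, which regulates poly(A) tails in the cytoplasm, had 588 and 248 reads and 637 in the library titled C. Ccnt1, the cyclin of the elongation factor P-TEFb, had 566, 272 and 382. Lsm7, a small RNA-binding subunit, had 12 and 6 reads and may share reads with copies.

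Signaling genes formed the largest of these groups. Cbl, a ubiquitin ligase of receptor tyrosine kinases, had 1044 reads in the library titled NF, 445 in the untransduced library, 1272 in the library titled C, 1062 in Ctx astrocytes and 1132 in Ctx NPCs, a log2 ratio of 1.30 (interval 1.14 to 1.46). For Cbl the untransduced library stood apart from the other 4. Rhov, a small GTPase, had 108, 37, 252, 43 and 34 reads and a ratio of 1.60 (interval 1.06 to 2.19), with the most reads in the library titled C. Rasd2, a striatal Ras-like protein, had 101, 37, 36, 102 and 30 reads and a ratio of 1.5 (interval 0.96 to 2.10). Rasd2 was alike in Ctx astrocytes and in the library titled NF. Arl5b, an Arf-like GTPase, had 326, 130 and 200 reads in the libraries titled NF, untransduced and titled C. Ptar1, related to prenyltransferase subunits, had 182, 73 and 151 in the same order. The kinase Hipk2 had 568, 256 and 756 reads, and the ubiquitin ligase Trim56 had 749, 356 and 601. The phosphatase Ptpn4 had 303, 140 and 272, and the myosin phosphatase subunit Ppp1r12b had 110, 48 and 119. For each of these the untransduced library was the lowest VM library.

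Outside these groups, Igsf9b, an adhesion protein of inhibitory synapses, had 229 reads in the library titled NF, 75 in the untransduced library and 111 in the library titled C, a log2 ratio of 1.67 (interval 1.29 to 2.07). Lnpep, a membrane aminopeptidase that travels with the glucose transporter of insulin-responsive cells, had 1422, 613 and 1398 reads in the same order. Pappa2, a protease of IGF-binding proteins, had 402, 210 and 30. The synaptic and channel genes Ddn (82 and 36), Cacng6 (34 and 16) and Gprin2 (38 and 18) had few reads. Of the others, Lmbrd2, a membrane protein, had 306 and 129 reads (log2 ratio 1.31, interval 1.01 to 1.62), and 406 in the library titled C. Tmem245 had 1474 and 754, and 758 in the library titled C.

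Promoters of the higher genes were searched for the elements of the transduced factors on both strands, in the window from 250 bases before to 50 bases after each start in the RefSeq table (GRCm38.p6). Windows were found for 35 of the 40 higher and 66 of the 83 lower genes. The forkhead letters TGTTTAC or TGTTTGC were in 9.76% of the 41 windows of the higher genes, 5.88% of the 85 windows of the lower genes, 5.93% of the windows of tested genes and 8.48% of all windows. The Nurr1 monomer letters AAAGGTCA were in 0 of the 41 windows of the higher genes, 3 of 85 of the lower genes (3.53%), 0.937% of those of tested genes and 1.51% of all. The 3 windows belong to 2 genes, Rab3il1 and Ttc30a1, because the windows of Rab3il1 overlap and hold the same match. By gene, the letters were in 2 of 66 lower genes and 109 of 9963 tested genes. The forkhead matches among higher genes were in Gm7361, Ppp1r12b, Prox1 and Trim56. A match of letters says nothing of binding. The windows of Prox1 (chr1:190169466-190169765, minus strand) and Trim56 (chr5:137116158-137116457, minus strand) are shown because they hold a forkhead match, in capitals, beginning 120 and 224 bases before the start.
Prox1: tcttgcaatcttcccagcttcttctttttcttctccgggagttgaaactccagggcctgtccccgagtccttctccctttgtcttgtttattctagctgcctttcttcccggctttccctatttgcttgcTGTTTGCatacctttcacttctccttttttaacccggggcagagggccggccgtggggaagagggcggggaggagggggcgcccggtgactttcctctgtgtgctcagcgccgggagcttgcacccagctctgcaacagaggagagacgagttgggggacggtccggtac
Trim56: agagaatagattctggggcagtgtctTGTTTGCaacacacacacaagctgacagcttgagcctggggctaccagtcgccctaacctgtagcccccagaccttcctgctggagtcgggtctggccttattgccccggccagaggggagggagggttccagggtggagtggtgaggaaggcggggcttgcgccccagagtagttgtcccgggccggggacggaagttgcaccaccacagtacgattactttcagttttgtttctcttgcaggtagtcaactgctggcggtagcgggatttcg

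The 83 lower genes included myeloid, cytokine and interferon-induced genes. Sorted by known function after their values were seen, 18 were receptors, enzymes and granule proteins of myeloid or lymphoid cells, 9 were cytokines and chemokines, 7 were interferon-induced, 6 were metabolic enzymes, 5 belonged to cilia or sperm, 5 were neuronal or transport genes, 4 were secreted proteins or proteases and their inhibitors, 3 were myelin genes, 3 were DNA-binding, 3 were signaling genes, 2 belonged to RNA machinery and 18 had other functions or none that could be given. As above, no share of these functions among all genes was tested. In bulk RNA, fewer cells of a type and less RNA per cell cannot be told apart.

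**Figure D4:**
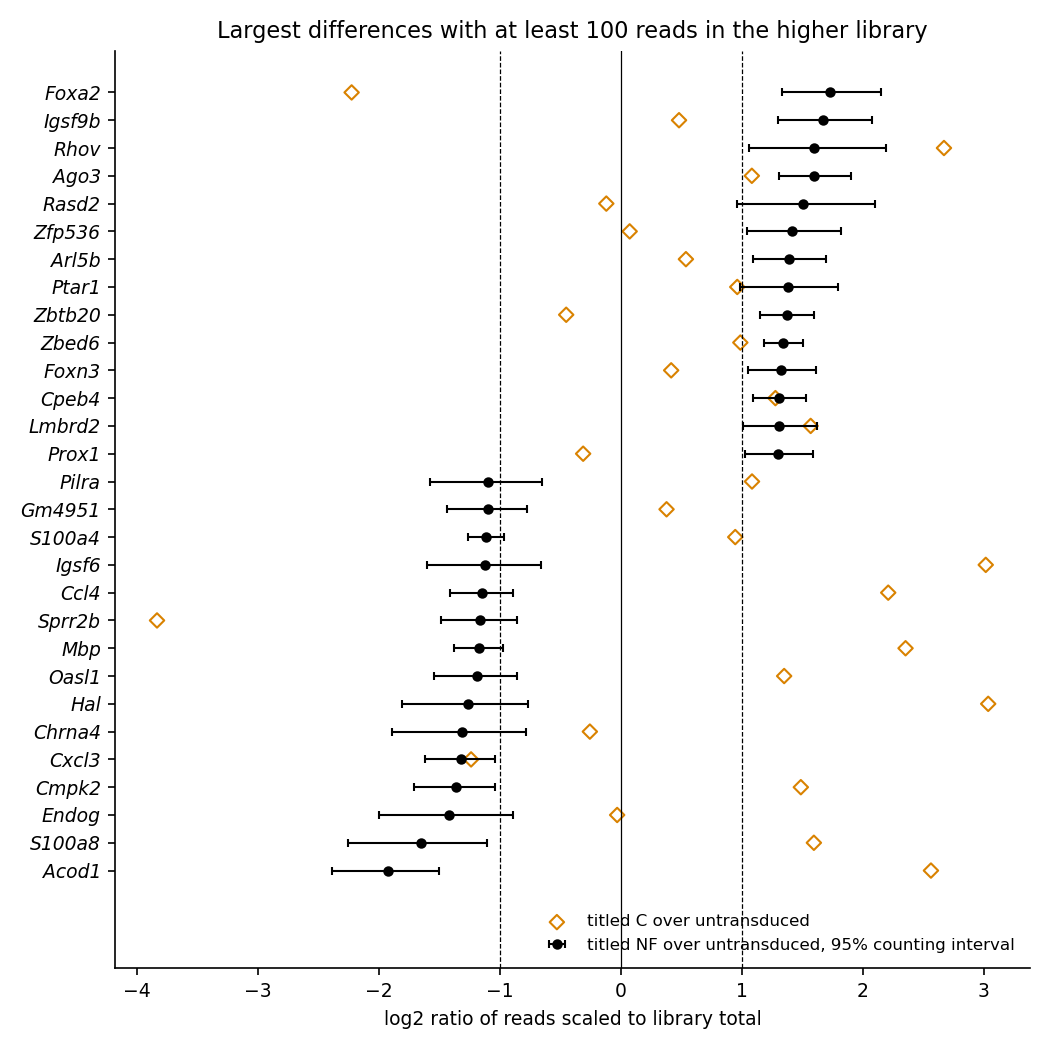
Log2 ratios of 29 of the genes with the largest rises and falls among those with at least 100 reads in the higher library. Black points show titled NF over untransduced with the 95% counting interval, and orange diamonds show titled C over untransduced, which shares the untransduced library. Acod1 lies lowest at -1.92 and Foxa2 highest at 1.73, and the diamonds of the immune genes shown lie to the right of 0, with the exception of Cxcl3.

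All 9 cytokine and chemokine genes past 2-fold were lower in the library titled NF. Il1b, the inflammasome-processed interleukin, had 19 reads in the library titled NF, 65 in the untransduced library, 82 in the library titled C and 1 in each Ctx library, a log2 ratio of -1.68 (interval -2.53 to -0.95). Tnf had 30, 65, 401, 21 and 2 reads over the 5 libraries and a ratio of -1.04 (interval -1.72 to -0.40). Both had under 100 reads in the 2 libraries compared, and the interval of Tnf reached a ratio well inside 2-fold. Il1rn, the antagonist of the interleukin-1 receptor, was also lower, with 330, 739, 3896, 74 and 2 reads and a ratio of -1.10 (interval -1.29 to -0.91). Il1a, the other interleukin-1 ligand, had 362 and 378 reads, a log2 ratio of 0.00. The antagonist and 1 of the 2 ligands were past 2-fold. The growth factors of granulocytes and macrophages, Csf3 and Csf2, had 12 and 36 reads and 29 and 62 reads.

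Among neutrophil-attracting chemokines, Cxcl3 had 136 reads in the library titled NF, 357 in the untransduced library, 160 in the library titled C, 24 in Ctx astrocytes and 1 in Ctx NPCs, a log2 ratio of -1.32 (interval -1.62 to -1.04). Ppbp, 17583 bases away from it by start on chromosome 5, had 13 and 30 reads. Ccl20, the ligand of CCR6, had 257, 549, 30, 41 and 1 reads over the 5 libraries and a ratio of -1.03 (interval -1.25 to -0.81). Ccl4, a macrophage chemokine, had 180, 418, 2048, 56 and 2 reads and a ratio of -1.15 (interval -1.41 to -0.89). Cxcl3 and Ccl20 were highest in the untransduced library, whereas Ccl4 was highest in the library titled C. Of 28 listed chemokine genes 26 were found and 21 tested. Of the 21, 3 were lower past 2-fold, against 0.668% of all tested genes. A log2 ratio below 0 was found for 20 of the 21, against 57.5% of all tested genes. The list median was -0.56, against -0.05 over all tested genes. The strongly expressed Ccl2 (5869 and 9583 reads) and Ccl6 (6960 and 11017) had ratios of -0.64 and -0.60. Cx3cl1, which neurons and astrocytes make, had 11084 and 11159 reads. Chemokine transcripts are short, with a median of 1022 bases, and set against genes of similar length the list median was -0.28 with 16 of 21 below 0.

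Of the 25 tested genes on the fixed list of cytokine and NFκB genes, 5 were lower past 2-fold (Il1b, Csf3, Il1rn, Tnf and Csf2) and none was higher. In all, 18 of the 25 had a log2 ratio below 0, and the median was -0.23, or -0.17 against genes of similar length. Over all tested genes, 0.668% were lower past 2-fold, 57.5% had a log2 ratio below 0 and the median was -0.05. Il1b, Csf3 and Tnf had an FPKM above 1 in the untransduced library only. With FPKM above 1 required in both libraries, the median of the list was -0.21. Il6 had 253 and 416 reads (ratio -0.65), Nos2, the inducible nitric oxide synthase, had 901 and 1466 (-0.64), and Nlrp3, the inflammasome sensor, had 43 and 82 and was below the FPKM limit. The 6 list members with the most reads, Vcam1 (35504 and 34916 reads), Csf1 (14870 and 12557), Nfkbia (10269 and 10210), Ptgs2 (5673 and 5690), Icam1 (4448 and 4289) and Tnfaip3 (2456 and 2092), had ratios between 0.06 and 0.31. Outside the list, Ccl2 and Lcn2, which NFκB is also known to induce, had ratios of -0.64 and -0.38. Next by reads on the list were the subunits Rela (2047 and 2460 reads) and Nfkb1 (1857 and 2120), with ratios of -0.20 and -0.12.

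NFκB and interferon factors bind known short elements, so the promoters were also searched for letters like theirs, a choice made after the data were seen. The letters GGNNTTTCC, part of a κB site with N for any base, were in 14.1% of the 85 windows of the lower genes and 4.88% of the 41 windows of the higher genes, against 5.88% of those of tested genes and 5.82% of all windows. Among the 9 windows of the lower cytokines and chemokines 5 held them, which belong to 4 of 7 genes (Ccl20, Csf2, Cxcl3 and Il1rn). The 2 windows of Il1rn overlap and hold the same match. The letters GAAANNGAA, part of an interferon-stimulated response element, were in 15.3% of windows of the lower genes, 7.32% of the higher genes, 7.09% of tested genes and 8.56% of all. By gene, 11 of the 66 lower genes with a window held the κB-like letters and 12 the interferon letters. Among tested genes with a window these were 707 and 858 of 9963. Cytokine and immune genes within 2-fold were not searched for comparison, and binding by NFκB or interferon factors was not tested. Windows of Cxcl3 (chr5:90785851-90786150, plus strand), Ccl20 (chr1:83116516-83116815, plus strand) and the myeloid enzyme Acod1 (chr14:103046762-103047061, plus strand) are shown with the κB-like letters in capitals, beginning 72, 80 and 85 bases before the start. That of the interferon-induced Oas1g (chr5:120887564-120887863, minus strand) is shown with 2 overlapping matches of the interferon letters in capitals, the first beginning 18 bases before the start.
Cxcl3: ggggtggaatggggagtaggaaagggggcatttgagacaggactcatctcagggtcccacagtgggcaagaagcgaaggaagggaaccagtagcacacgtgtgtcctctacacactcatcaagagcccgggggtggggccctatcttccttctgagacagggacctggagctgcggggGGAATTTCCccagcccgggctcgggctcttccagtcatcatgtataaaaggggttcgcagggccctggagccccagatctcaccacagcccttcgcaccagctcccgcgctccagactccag
Ccl20: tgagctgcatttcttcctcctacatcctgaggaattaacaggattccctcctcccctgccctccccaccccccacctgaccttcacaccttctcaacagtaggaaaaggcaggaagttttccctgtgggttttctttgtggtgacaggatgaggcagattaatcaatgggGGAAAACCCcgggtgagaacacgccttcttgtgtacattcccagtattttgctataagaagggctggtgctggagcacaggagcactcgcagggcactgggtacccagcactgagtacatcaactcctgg
Acod1: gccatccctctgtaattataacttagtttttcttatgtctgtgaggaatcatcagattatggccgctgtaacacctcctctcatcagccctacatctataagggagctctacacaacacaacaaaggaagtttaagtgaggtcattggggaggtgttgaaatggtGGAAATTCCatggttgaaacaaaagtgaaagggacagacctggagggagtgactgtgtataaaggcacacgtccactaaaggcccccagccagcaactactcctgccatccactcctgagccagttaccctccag
Oas1g: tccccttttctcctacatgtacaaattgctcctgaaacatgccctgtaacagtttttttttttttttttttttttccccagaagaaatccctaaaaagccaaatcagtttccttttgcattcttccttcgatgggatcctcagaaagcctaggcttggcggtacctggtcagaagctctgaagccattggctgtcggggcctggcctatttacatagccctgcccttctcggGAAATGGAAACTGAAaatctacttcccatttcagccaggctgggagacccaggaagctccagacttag

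Myeloid genes were the largest of the lower groups. Acod1, which makes itaconate in activated macrophages, had 55 reads in the library titled NF, 220 in the untransduced library, 1378 in the library titled C, 30 in Ctx astrocytes and 19 in Ctx NPCs, a log2 ratio of -1.92 (interval -2.39 to -1.5), 3.79-fold lower. S100a8, a calcium-binding protein of neutrophils and monocytes, had 35, 116, 372, 15 and 0 reads and a ratio of -1.65 (interval -2.25 to -1.11). S100a4, a relative 65301 bases away by start on chromosome 3, had 547, 1241, 2530, 278 and 134 reads and a ratio of -1.11 (interval -1.26 to -0.97). All 3 were highest in the library titled C and lowest among VM libraries in the one titled NF. Arg1, arginase of alternatively activated macrophages, had the most reads of the lower genes, 750 and 1580, with 2239 in the library titled C and a ratio of -1.01 (interval -1.14 to -0.88). The receptors C5ar1 (97 and 216 reads), Fcgr4 (104 and 219), Igsf6 (56 and 128), Pilra (59 and 133) and Cd200r4 (24 and 70) lay between -1.0 and -1.46. Pirb, Ms4a6b, Clec4a1, Stfa3 and Cstdc4 belong to families of near-identical genes, whose reads may be split between copies, and had at most 73 reads in either library.

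The microglia markers moved with these genes. Of 21 fixed markers 20 were found and 14 tested. Of the 14, 13 had a log2 ratio below 0, with a median of -0.47, or -0.35 against genes of similar length. Over all tested genes, 57.5% had a ratio below 0 and 0.668% were lower past 2-fold. Aif1, which encodes IBA1, was past 2-fold with 17 and 46 reads, and 311 in the library titled C. The receptor Csf1r had 326 and 527 reads, the signaling adaptor Tyrobp 456 and 690, the integrin Itgam 1346 and 1893, and the lysozyme Lyz2 22524 and 36129. Their ratios lay between -0.43 and -0.63. The summed level of the list was 1597 CPM in the library titled NF, 2322 in the untransduced library and 5039 in the library titled C. Lyz2 alone made up 1107, 1696 and 2873 CPM of these sums, in the same order. Markers of resting microglia were scarce in both, with 14 and 30 reads of Cx3cr1, 10 and 6 of P2ry12 and none of Siglech. The part of a difference in microglial RNA in the lower immune genes was not tested. The lowest of the 14 tested markers was Aif1 at -1.34, followed by Cd14 at -0.77 (1328 and 2374 reads). Aif1 had an FPKM above 1 in the untransduced library only. With FPKM above 1 required in both libraries, the median of the markers was -0.44. Of 13 tested complement genes C5ar1 was past 2-fold, with a list median of -0.19, and C3 had 17176 and 17688 reads.

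Interferon-induced genes were lower across the list and mostly by less than 2-fold. Of 33 tested interferon-stimulated genes 32 had a log2 ratio below 0 and the median was -0.41. Over all tested genes, 57.5% had a ratio below 0 and 0.668% were lower past 2-fold. Set against genes of similar length the median was -0.42, with 31 of 33 below 0, nearly the same value. Cmpk2, a mitochondrial nucleotide kinase induced by interferon, had 102 reads in the library titled NF, 276 in the untransduced library, 820 in the library titled C, 200 in Ctx astrocytes and 176 in Ctx NPCs, a ratio of -1.37 (interval -1.71 to -1.04). Oasl1, of the oligoadenylate synthetase family, had 103, 247, 667, 66 and 33 reads and a ratio of -1.19 (interval -1.54 to -0.86). These 2 were the list members past 2-fold, and both were highest in the library titled C. Isg15, a ubiquitin-like protein, had 2025 and 4071 reads (-0.94) and the viral RNA binder Ifit1 had 2281 and 3893 (-0.70). Outside the list, Ifitm6 (13 and 42 reads), Oas1g (22 and 62), the GTPase Tgtp1 (33 and 81) and the related Gm4841 (31 and 73) and Gm4951 (111 and 250) were also lower past 2-fold. Oas1g, Tgtp1, Gm4841 and Gm4951 have close copies nearby in the genome, and their counts are uncertain for that reason. Antigen presentation genes had a median of -0.13 with none of 10 past 2-fold.

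Myelin genes held the largest fall. Mag, the myelin-associated glycoprotein, had 13 reads in the library titled NF, 89 in the untransduced library, 307 in the library titled C, 8 in Ctx astrocytes and 6184 in Ctx NPCs, a log2 ratio of -2.66 (interval -3.67 to -1.86), 6.34-fold lower. Cldn11, the tight junction protein of myelin, had 32, 94, 335, 64 and 9147 reads and a ratio of -1.47 (interval -2.11 to -0.90). Mbp, myelin basic protein, had 277, 655, 3543, 251 and 75411 reads and a ratio of -1.17 (interval -1.38 to -0.97). For all 3 the library titled NF was the lowest of the VM libraries, and for Mag and Mbp it lay near Ctx astrocytes. Of 12 oligodendrocyte markers 6 were tested, with a median of -0.96. Mag and Cldn11 had an FPKM above 1 in the untransduced library only, and with FPKM above 1 required in both libraries the median was -0.46. Beside these 3, Cnp had 3879 and 4573 reads (-0.17) and Myrf, the transcription factor of myelination, 322 and 330 (0.03). Mog, Mobp and Ermn had 1 and 2 reads each and Opalin had 0 in both. Oligodendrocyte progenitor markers had a median of -0.47 with none of 8 past 2-fold; Olig1 had 2073 and 3128 reads, Olig2 600 and 885, and Pdgfra 1760 and 1691. The part of a difference in oligodendrocyte-lineage cells was not tested.

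The remaining lower genes were scattered over functions. The cilia and sperm genes were Cfap97d2 (4 and 18 reads), Meig1 (7 and 21), Cibar2 (12 and 35), Cfap52 (36 and 91) and Ttc30a1 (74 and 160). The fixed ependymal cilia list had a median of -0.44, or -0.20 against genes of similar length, with none of 9 past 2-fold. Foxj1, the master regulator of motile cilia, had 5996 and 6527 reads. Of the metabolic enzymes, Endog, a mitochondrial nuclease, had 39 reads in the library titled NF, 110 in the untransduced library, 114 in the library titled C, 75 in Ctx astrocytes and 212 in Ctx NPCs, a log2 ratio of -1.42 (interval -2.0 to -0.89). Hal, histidine ammonia-lyase, had 45, 114, 993, 32 and 0 reads and a ratio of -1.27 (interval -1.81 to -0.76). The library titled C was on a level with the untransduced library for Endog and far above it for Hal. Chrna4, a nicotinic receptor subunit, had 40, 105, 93, 538 and 537 reads and a ratio of -1.32 (interval -1.89 to -0.79). Sprr2b, a cornified envelope protein with close copies in the genome, had 123, 289, 21, 0 and 1 reads and a ratio of -1.16 (interval -1.48 to -0.86). Slc6a12, a betaine and GABA transporter, had 26 and 68 reads, the neuropeptide gene Nts 10 and 31, the cell cycle phosphatase Cdkn3 22 and 63, and the transcription factor Batf 11 and 27. Hmgn2 had 6 and 28 reads and many processed copies in the genome, so its ratio of -2.07 is uncertain.

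The tested astrocyte genes stayed within 2-fold. Of 20 markers 19 were tested in these cultures, with a median log2 ratio of -0.21 and none past 2-fold. The intermediate filament Gfap had 4316 reads in the library titled NF and 8923 in the untransduced library, a ratio of -0.98, just inside 2-fold. The glutamate transporter Slc1a3 had 8751 and 8681 reads, the water channel Aqp4 3593 and 4980, and Aldh1l1 6255 and 7446. Gjb6 had 3 and 1 reads. The panel of reactive astrocyte genes had a median of -0.19, or -0.08 against genes of similar length, with none of 34 past 2-fold; Lcn2 had 14889 and 20271 reads, and Vim 96589 and 118818. Immediate early genes lay above the rest, with a median of 0.29 over 12 genes and none past 2-fold. Egr1 had 17014 and 11929 reads (0.58) and Fos 4844 and 3683 (0.46). Glucocorticoid-induced genes had a median of 0.13 over 11 genes and none past 2-fold. The 4 with the most reads were the phosphatase gene Dusp1 (8639 and 7009 reads, 0.37), Cebpd (7855 and 9797, -0.25), Ddit4 (4297 and 4113, 0.13) and Klf9 (4049 and 2674, 0.67).

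The other fixed lists had no tested member past 2-fold. Proliferation genes had a median of -0.38 over 14 genes, choroid plexus markers -0.27 over 5, mural and contractile genes -0.21 over 9, and hypoxia and glycolysis genes -0.14 over 12. Neurotrophic factors (-0.09), endothelial markers (-0.05), Nrf2 and glutathione genes (-0.03), metalloproteinases and their inhibitors (-0.03), senescence genes (-0.02), genes of the unfolded protein and amino acid stress responses (-0.01), neuron markers (0.01), cholesterol synthesis genes (0.05) and fibroblast and meningeal genes (0.06) had medians close to that of all tested genes. None of these lists was tested against other genes.

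**Figure D5:**
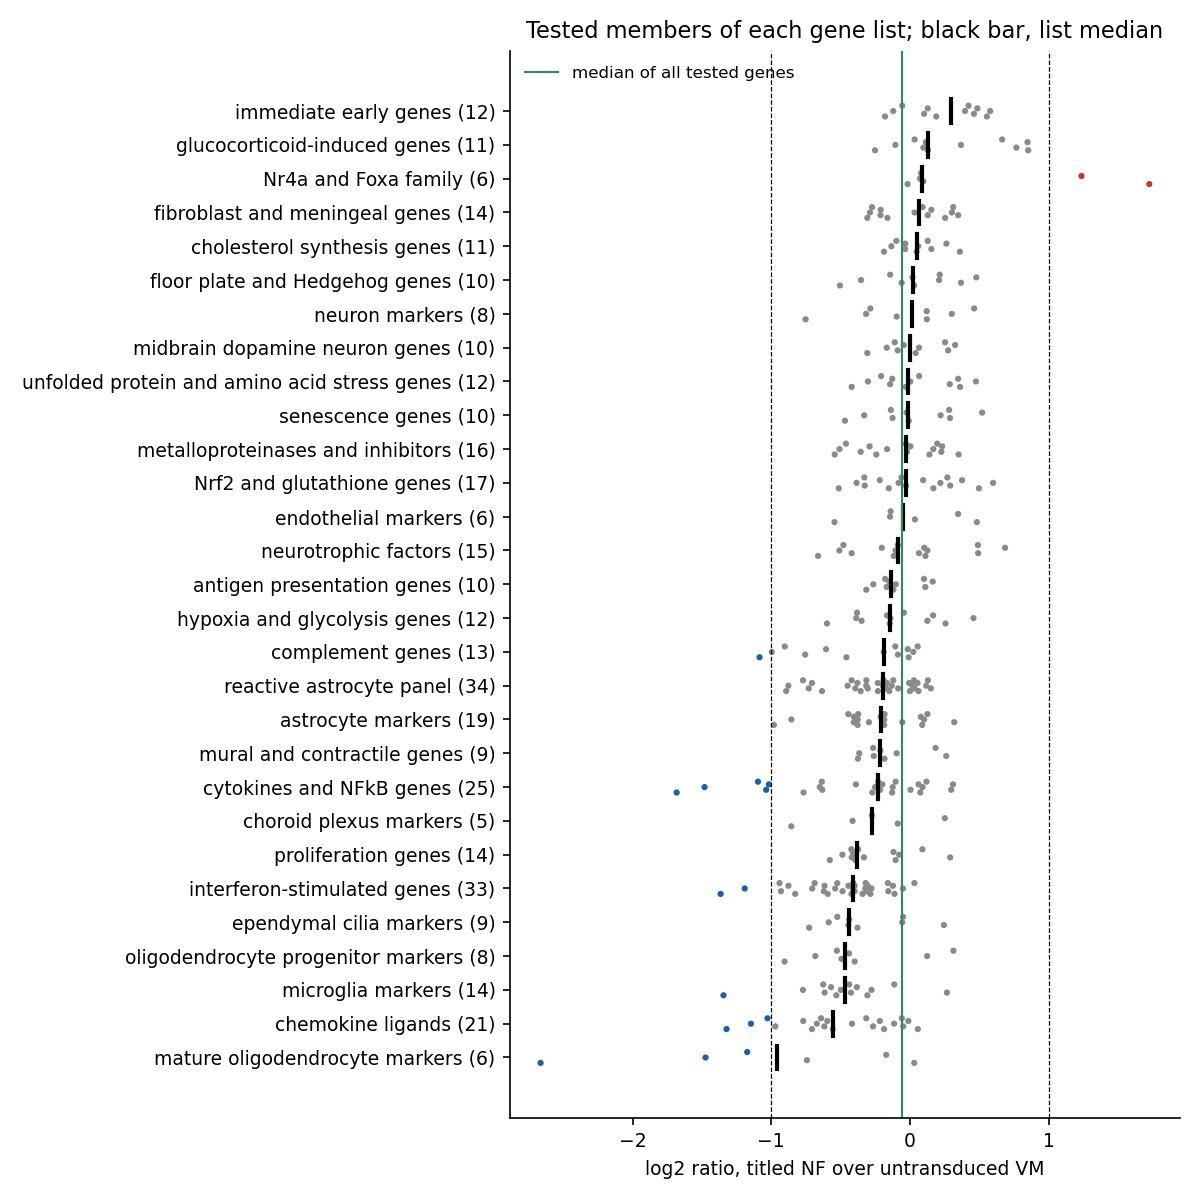
Log2 ratios of titled NF over untransduced VM astrocytes for the tested members of each fixed gene list (number tested in brackets). Points are genes, blue and red past 2-fold, black bars are list medians and the green line is the median of all tested genes at -0.05. Oligodendrocyte markers (-0.96, or -0.46 without the 2 that passed the FPKM limit in the untransduced library only), chemokines (-0.56) and microglia markers (-0.47) lie low, and immediate early genes (0.29) have the highest median.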

How the data were processed

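The authors' deposited tables give, for each RefSeq transcript of each library, raw read counts and FPKM, which normalizes the count to the transcript's length and the library's total. Recomputed FPKM differed from the deposited FPKM by at most 4.09e-05 of the value. Per the study's methods, reads were trimmed at a quality score of 20, mapped with STAR to GRCm38/mm10 and counted on RefSeq exons with HTSeq-count; the submitters' processing notes also name bcl2fastq 1.8.4, DESeq and mm9. Counting by strand is not given in the sources used here. Of the transcripts, 19997 were paired with a symbol through RefSeq, 96 through GENCODE and 85 were kept as identifiers.

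The 5 libraries held 20010818 to 22554835 reads. Counts were scaled to library total after adding 0.5 reads in proportion to library size, and ratios were put on the log2 scale. A gene was past 2-fold at a ratio of 2 if either library gave it an FPKM > 1. Intervals are exact (Clopper-Pearson) at 95%. With 1 library per condition no p-values were computed. Genes named in full were Nr4a2, Foxa2, Sgk1 and the 15 largest rises and falls with at least 100 reads in the higher library. Any gene past 2-fold could be named, and of each list the members past 2-fold or, where there were none, up to 4 with the most reads. Other list members named, such as Il1a, Il6, Nos2, Gfap and Shh, were chosen after their values were seen. Some genes under this rule are not reported here. The members and gene lists were chosen with earlier results of these data known. Alternatives were TMM (edgeR 4.0.16), DESeq2 1.42.0 size factors, upper-quartile scaling, other added reads, filters and folds, thinned reads and, added after the data were seen, centering on transcript length (20 bins) and GC content. The ratios were checked on simulated counts. Python 3.11.15 and R 4.3.3 were used.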

Additional observations from a re-analysis of the deposited data

How the results depend on the processing

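No paired analysis was possible because each condition had 1 library. The count of 40 higher and 83 lower genes ranged from 32 to 55 and from 62 to 87 under TMM, DESeq2 size factors, upper-quartile scaling, 5 or no reads added and thinning to the smaller total. It was 759 and 1020 with no filter on low values, 23 and 39 with FPKM > 1 in both libraries, 21 and 15 when either library had to reach a CPM of 10, 319 and 514 at 1.5-fold, 5 and 12 at 3-fold, and 19 and 6 with the whole counting interval past 2-fold. Centering on transcript length left 49 and 53, and on length and GC content 49 and 49.

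With the treatment entries in place of the titles, so that the library titled C stands for Nurr1 and Foxa2, 927 genes were higher and 1077 lower than in the untransduced library. Among the genes given with full values, the log2 ratio then changed sign for 16 of those past 2-fold, and for Sgk1, which became 1.18. It became 2.56 for Acod1, 1.59 for S100a8, 1.49 for Cmpk2, 3.03 for Hal, 1.35 for Oasl1, 2.35 for Mbp, 2.21 for Ccl4, 3.01 for Igsf6, 0.94 for S100a4, 0.38 for Gm4951 and 1.08 for Pilra. It became -0.31 for Prox1, -0.45 for Zbtb20, -0.12 for Rasd2, -2.22 for Foxa2 and -0.69 for Nr4a2. Other genes past 2-fold changed sign too, among them Mag (1.70), Tnf (2.53) and Il1rn (2.32). No list median changed sign by more than 0.1 on both sides under the scaling, added reads, filter and length settings. List medians were not computed with the treatment entries in place of the titles.

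Depth limits the low genes, and the spread between cultures was not measured.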
